A study of Mus musculus with 8 samples.

Results

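The collagen genes measured here are those named Col, a number, a and a number on a mouse expression array, such as Col1a1, without the epidermal transmembrane collagen gene Col17a1. The array annotation gave 41 such genes on 81 probe sets, out of 18193 genes with their own symbol and 45037 probe sets that were not array controls. They were sorted by how their proteins assemble. The fibrillar class held 11 genes, the network class 9, the FACIT class (fibril-associated collagens with interrupted triple helices) 9, and 12 of other build made up the rest. Total RNA from belly skin of mice aged 8 months had been hybridised to 8 arrays. The transgenic group carried a hurpin transgene and held 4 animals, females 7 and 84 and males 11 and 17. The wildtype group held 3 animals, males 26 and 28 and female 29, and female 29 was measured on 2 arrays that were averaged. Hurpin, also called SERPINB13, belongs to the serpins and blocks cathepsin L, a cysteine protease. The promoter that drives the transgene and the strain are not given in the sources used here. All animals shared the tissue site and the age, and the groups differed in their mix of sexes.

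Collagens are trimers of alpha chains wound into a triple helix. In dermis, type I collagen (chains from Col1a1 and Col1a2) and type III collagen (Col3a1) form the banded fibrils, type V collagen (Col5a1, Col5a2) limits their diameter, and type VI collagen (Col6a1, Col6a2, Col6a3) forms beaded filaments around cells. Type IV collagen is the sheet of basement membranes, type VII anchors the epidermal basement membrane to the dermis, and FACIT collagens such as types XII and XIV sit on the fibril surface. Chains are hydroxylated and folded in the endoplasmic reticulum, trimmed of their propeptides outside the cell, and cross-linked by lysyl oxidases.

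Promoter windows were read from RefSeq for the collagen genes whose members moved most clearly together or that contrast with them. Each window runs from 250 bases before to 50 bases after the annotated start, on build GRCm38.p6. A pair of fibrillar genes, Col1a2 and Col3a1, is shown because males lay above females on the brightest probe set of each. Of their probe sets below, only 1423110_at of Col1a2 passed the threshold. The Col1a2 window is chr6:4505368-4505667 on the plus strand, and capitals mark the CCAAT box, searched as CCAAT and as ATTGG on the other strand. CCAAT began at -109 from the start and ATTGG at 0, the start base itself. The Col3a1 window is chr1:45311288-45311587 on the plus strand and held neither. Either form was present in 12 of 35 windows of collagen genes, which was 34.3%, and in 37.4% of all 32851 windows of this length. Windows were matched for 32 of the 41 genes.
Col1a2: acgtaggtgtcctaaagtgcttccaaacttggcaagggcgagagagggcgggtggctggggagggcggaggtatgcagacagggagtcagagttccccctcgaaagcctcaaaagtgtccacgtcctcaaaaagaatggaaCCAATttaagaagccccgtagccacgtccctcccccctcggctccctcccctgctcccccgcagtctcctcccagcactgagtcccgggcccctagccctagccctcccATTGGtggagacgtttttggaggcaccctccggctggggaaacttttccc
Col3a1: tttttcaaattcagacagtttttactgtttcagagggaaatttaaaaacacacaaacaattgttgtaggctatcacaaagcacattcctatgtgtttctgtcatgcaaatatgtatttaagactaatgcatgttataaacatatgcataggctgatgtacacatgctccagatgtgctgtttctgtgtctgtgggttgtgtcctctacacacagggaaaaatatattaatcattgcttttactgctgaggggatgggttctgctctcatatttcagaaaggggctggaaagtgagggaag
The type IV chains are encoded as neighbouring pairs of genes read in opposite directions from a shared start region. Col4a2 and Col4a4 are shown because the Col4a1 and Col4a2 pair differed little between animals, while Col4a3 and Col4a4 varied together. The Col4a2 window is chr8:11312555-11312854 on the plus strand, and its 78 capitals are the bases that the Col4a1 window holds as well, read there on the other strand. The Col4a4 window is chr1:82586800-82587099 on the minus strand, and its 114 capitals are bases that lie within both the Col4a3 and the Col4a4 gene as RefSeq lays them out. They lie before the start used for this window, because the Col4a4 gene in RefSeq reaches out to chr1:82587034.
Col4a2: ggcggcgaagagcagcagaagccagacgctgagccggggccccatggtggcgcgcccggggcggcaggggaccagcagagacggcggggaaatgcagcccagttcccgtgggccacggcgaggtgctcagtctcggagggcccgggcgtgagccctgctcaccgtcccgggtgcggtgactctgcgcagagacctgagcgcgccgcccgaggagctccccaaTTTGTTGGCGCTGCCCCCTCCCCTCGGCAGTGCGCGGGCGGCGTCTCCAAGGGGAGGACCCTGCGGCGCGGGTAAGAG
Col4a4: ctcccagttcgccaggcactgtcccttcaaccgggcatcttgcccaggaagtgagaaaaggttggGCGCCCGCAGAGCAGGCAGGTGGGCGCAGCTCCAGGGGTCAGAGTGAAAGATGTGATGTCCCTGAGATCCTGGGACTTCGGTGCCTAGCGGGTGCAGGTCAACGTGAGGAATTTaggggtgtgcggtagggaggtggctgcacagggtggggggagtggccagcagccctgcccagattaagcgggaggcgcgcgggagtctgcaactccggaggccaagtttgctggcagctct

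All values below are log2 of signal plus 21.8, and all differences are on that scale. It understates the change of probe sets with low signal, and levels of different probe sets cannot be ranked. The number of arrays limits the precision. Sex-linked genes matched the labelled sex of all 7 animals. All 8 of the fibroblast markers lay above the low-signal limit, so dermis was present, as were all 6 keratinocyte, 7 skeletal muscle and 6 hair shaft markers and 4 of 5 adipocyte markers. Matn3 and Hapln1, 2 of the 5 chondrocyte markers, lay below it. Gapdh control probe sets read the 3' and 5' ends of a transcript, and the Gapdh ratio is their 3' signal divided by their 5' signal. Broken RNA and labelling that stopped short cannot be told apart by it. It was 13.8 and 17.2 in transgenic females 7 and 84, 1.45 and 4.68 in transgenic males 11 and 17, and 0.927 to 1.41 on the wildtype arrays. The same ratio for Actb was 4.33 and 5.87 in females 7 and 84, 2.40 and 3.33 in males 11 and 17, and 2.21 to 2.64 on the wildtype arrays. Hair keratin signal averaged 6.59 in wildtype 26 and 10.29 in transgenic 17, against 12.83 to 14.49 in the other animals. In whole skin, fewer cells of a type and less RNA per cell cannot be told apart.

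Of the 81 collagen probe sets, 53 for 32 genes had a mean signal above the low-signal limit and were tested. The other 28 probe sets included every probe set of 9 genes (Col6a4, Col6a5, Col9a2, Col9a3, Col10a1, Col11a2, Col19a1, Col24a1 and Col26a1). The arrays of wildtype 29 differed by a median of 0.17 over the 53 collagen probe sets, and 45 of them lay within 0.5. The median was 0.19 over all probe sets tested. The widest gap, 1.85, was that of Col2a1.

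The first question was whether the hurpin transgene goes with a different level of collagen transcripts. No collagen gene was called between the groups, and the chains of type I, III, V and VI collagen overlapped between them on all but a single Col1a1 probe set. None of the 53 probe sets passed the threshold in the comparison of transgenic with wildtype animals (limma, adjusted p under 0.05, smallest adjusted p = 0.315), while 0.0148% of all 27022 probe sets did. Limma gave an unadjusted p under 0.05 for 3 of the 53, against 11.7% of all probe sets. Differences ran from -1.21 to 1.55, and 46 of the 53 lay within 0.5 of no change.

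Col1a1 encodes the chain that makes up most of type I collagen, and its probe sets went separate ways. Probe set 1423669_at read 13.85 and 13.86 in transgenic females 7 and 84, 14.95 and 14.92 in transgenic males 11 and 17, 15.15 and 14.97 in wildtype males 26 and 28, and 13.63 in wildtype female 29. The groups overlapped fully on this probe set, and the females were the 3 low animals. Its transgenic minus wildtype difference was -0.19 with a 95% interval of -1.14 to 0.77 (limma, adjusted p = 0.89).

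Col1a2 encodes the second chain of type I collagen. Its probe set 1450857_a_at read 14.89, 15.29, 15.15 and 14.68 in transgenic 7, 11, 17 and 84 and 15.34, 15.28 and 14.57 in wildtype 26, 28 and 29. Again the groups overlapped and the 3 females were lowest. The group difference was -0.06 (95% interval -0.56 to 0.43), and those of its other probe sets were -0.07 and 0.07.

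Col3a1, the type III chain, read 15.20, 15.39, 15.38 and 15.03 in transgenic 7, 11, 17 and 84 and 15.51, 15.32 and 14.78 in wildtype 26, 28 and 29. Its group difference was 0.05 on each of its probe sets (95% interval -0.36 to 0.46 for 1427883_a_at). The groups overlapped on every probe set of Col1a2 and Col3a1.

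The type V chains behaved alike. Col5a1 by 1434479_at read 11.37, 12.50, 12.70 and 11.28 in the transgenic and 12.73, 12.23 and 11.12 in the wildtype animals, in the order used above, a group difference of -0.07. Col5a2 by 1422437_at read 13.45, 13.97, 14.11 and 13.32 against 14.11, 13.71 and 12.76, a difference of 0.18 (95% interval -0.55 to 0.91). For both genes wildtype female 29 was the lowest animal and the groups overlapped. The widest group difference of a type V probe set was -0.85, for the dimmest of Col5a1, with an interval of -2.43 to 0.73.

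Type VI and type VII collagen also overlapped between groups. Col6a1 read 12.23, 13.16, 13.13 and 12.61 in the transgenic and 13.06, 12.92 and 12.25 in the wildtype animals. Group differences were 0.04 for Col6a1, 0.05 and -0.08 for the probe sets of Col6a2, 0.17 for Col6a3 and 0.08 for Col7a1, the anchoring fibril chain.

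Among the surface and basement membrane collagens, Col14a1 differed by 0.22 (adjusted p = 0.59, limma) and Col12a1 by 0.13. The other probe sets of these genes differed by -0.02 and -0.81. Col18a1, which encodes the basement membrane collagen that yields endostatin, had a difference of -0.21, with -0.59 on its other probe set. Col4a1 read 12.72, 13.08, 12.84 and 13.00 in transgenic 7, 11, 17 and 84 and 12.85, 13.20 and 12.76 in wildtype 26, 28 and 29, a difference of -0.03. Col4a2 differed by 0.02. The standard deviation of Col4a1 was 0.16 in transgenic (n = 4) and 0.23 in wildtype animals (n = 3), against 0.63 and 0.83 for Col1a1 by 1423669_at.

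The groups did not overlap on 3 of the 53 tested collagen probe sets, 1 higher and 2 lower in transgenic animals, while 11.3% of all probe sets tested had no overlap. They were the same 3 probe sets that had an unadjusted p under 0.05 by limma. A further probe set below the low-signal limit, Col22a1 by 1453084_s_at, was higher in every transgenic animal.

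The first of the 3 is the other Col1a1 probe set, 1455494_at. It read 12.41, 14.07, 13.92 and 12.46 in transgenic 7, 11, 17 and 84 and 12.21, 11.76 and 11.02 in wildtype 26, 28 and 29. Every transgenic animal lay above every wildtype animal, and the transgenic males lay highest. The difference was 1.55 with a standard error of 0.47 and a 95% interval of 0.48 to 2.62 (limma, adjusted p = 0.328). It was 2.84 with the Gapdh ratio in the model (adjusted p = 0.819) and 2.33 without transgenic 7 and 84. That last fit held only males in the transgenic group, while the wildtype group kept female 29. Its group values therefore also carry the mix of sexes.

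The comparison was also made with sex in the model. Col1a1 by 1455494_at was then the only collagen probe set called, 1 of 53, against 0.0407% of all probe sets. Its difference was 1.77 with a standard error of 0.17 and an interval of 1.38 to 2.17 (limma, adjusted p = 0.0235). Within males transgenic animals were 2.01 higher, and within females 1.42 higher. The call was lost when any animal other than transgenic 11 was left out. The adjusted p was then 0.109 without transgenic 7, 0.093 without transgenic 17, 0.0713 without transgenic 84, 0.0606 without wildtype 26, 0.0769 without wildtype 28 and 0.0708 without wildtype 29, while the difference stayed between 1.60 and 2.01. Without transgenic 7 and 84 together it was 2.01 (adjusted p = 0.279). The Col8a1 and Col4a6 probe sets named next and Col4a4 by 1445328_at, which was 0.57 higher in transgenic animals, had an unadjusted p under 0.05 by limma in this model.

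The Col1a1 probe sets can be set against each other on each array. Signal of 1455494_at minus that of 1423669_at was -1.44, -0.88, -0.997 and -1.40 in transgenic 7, 11, 17 and 84. It was -2.93, -3.20 and -2.61 in wildtype 26, 28 and 29, with -2.74 and -2.48 on the arrays of 29. The means were -1.18 ± 0.28 (SD, n = 4) and -2.91 ± 0.30 (SD, n = 3), a gap of 1.74 between groups that do not overlap. Col1a1 was named because its probe sets differ in this way, so the gap is a description with no test. The males minus females gap of the same quantity was -0.19. For 5915 genes with several tested probe sets, the group differences of the brightest pair of probe sets were compared. They lay at least 1 apart for 416 genes (7.03%), and at least as far apart as those of Col1a1 for 47 (0.795%). Further probe sets of a gene were left out of this count. Which stretch of the transcript each probe set reads was not analysed here. The Gapdh ratio was 1.45 in transgenic 11 and 13.8 in transgenic 7, and their values of -0.88 and -1.44 were both above every wildtype value. The part of RNA breakdown or labelling in this gap was not tested.

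Col8a1 encodes a short-chain network collagen made by endothelial and mesenchymal cells. By 1418440_at it read 6.002, 6.78, 6.16 and 5.65 in transgenic 7, 11, 17 and 84 and 7.76, 7.35 and 6.95 in wildtype 26, 28 and 29, so all transgenic animals were lower. The transgenic mean, 6.15, lay below the low-signal limit and the wildtype mean, 7.35, above it. The probe set was therefore tested only because of its wildtype signal. The difference was -1.21 (standard error 0.34, 95% interval -1.98 to -0.43, limma, adjusted p = 0.315). It was -0.51 with the Gapdh ratio in the model and -0.74 with a pseudocount of 87.2 in place of 21.8. The brighter Col8a1 probe set 1455627_at differed by -0.25, and its groups overlapped. Endothelial markers summed to between 1539 and 2274 in transgenic and 1584 and 2777 in wildtype animals, and their part in the Col8a1 values was not tested.

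Col4a6, an epithelial basement membrane chain, read 7.01, 7.71, 7.46 and 6.77 in transgenic 7, 11, 17 and 84 by 1421006_at, and 8.07, 7.77 and 7.77 in wildtype animals. Transgenic 11, at 7.71, lay just below the wildtype values. The difference was -0.63 (limma, adjusted p = 0.417), and it was 0.22 on the other probe set, 1421007_at. The difference of 1421006_at was 0.0026 with the Gapdh ratio in the model and -0.28 without transgenic 7 and 84. The latter fit held no transgenic female.

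By class, with the brightest probe set standing for each gene, the median group difference was 0.03 for 9 tested fibrillar genes, -0.01 for 8 network genes, 0.13 for 6 FACIT genes and 0.08 for 9 other genes. Over all 13559 genes tested it was 0.05. Differences above 0 numbered 5 of 9, 4 of 8, 5 of 6 and 7 of 9, against 56.3% of all genes. With the Gapdh ratio in the model the fibrillar median was 0.68 and that of the other genes 0.48.

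**Figure D1:**
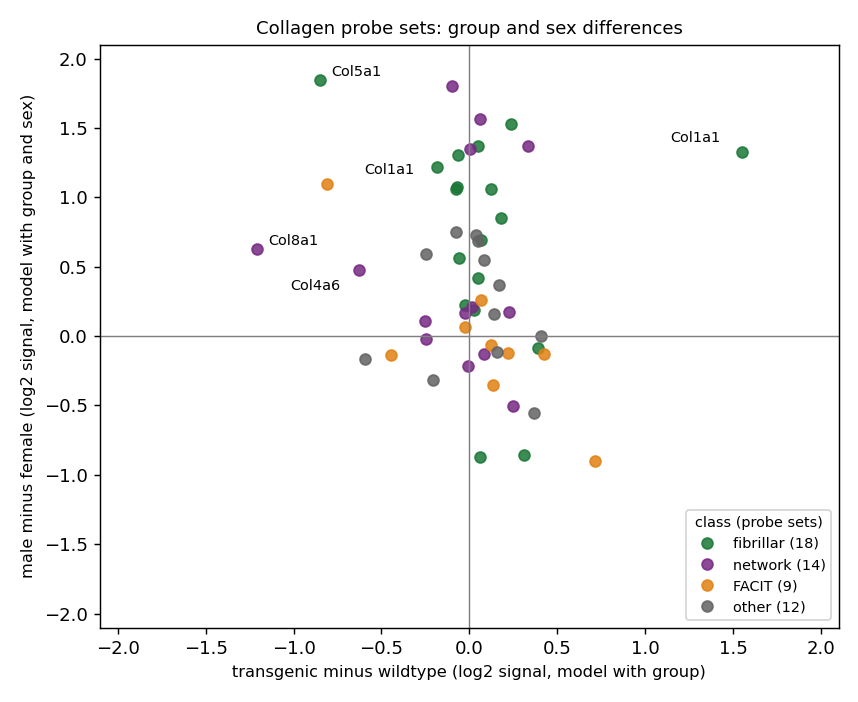
Each point is 1 of the 53 tested collagen probe sets, with the transgenic minus wildtype difference (log2 signal) on the horizontal axis and the male minus female difference (log2 signal) on the vertical axis, coloured by class. Points spread little sideways, with 46 within 0.5 of 0, and 36 of the 53 lie above 0 on the vertical axis; Col1a1 by 1455494_at stands at 1.55 on the right and Col8a1 at -1.21 on the left.

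On most of the type I, III, V and VI probe sets above the females were the lowest animals of both groups, and a comparison of males with females was therefore added after the data had been seen. It used the same model with group and sex over 4 males and 3 females, and 1 of the wildtype animals was female. Col1a1 and Col1a2 of type I collagen and Col5a1 of type V collagen were higher in males, and the sexes also stood apart on the probe sets of Col3a1, Col5a2 and the type VI chains. Of the 53 collagen probe sets, 4 passed the threshold (limma, adjusted p under 0.05), all higher in males, against 0.226% of all probe sets. An unadjusted p under 0.05 with a higher male level was found by limma for 23 (43.4%), against 7.28% of all probe sets, and with a lower male level for 1, against 3.57%. The sexes did not overlap, with males higher, on 22 (41.5%), against 5.66% of all probe sets.

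Both Col1a1 probe sets were among the 4. By 1423669_at, whose values are given above, the males lay between 14.92 and 15.15 and the females between 13.63 and 13.86. The sexes were 15.00 ± 0.10 (SD, n = 4) and 13.78 ± 0.13 (SD, n = 3), a difference of 1.22 with a standard error of 0.12 (limma, adjusted p = 0.00735). By 1455494_at the difference was 1.32 (adjusted p = 0.032), although the sexes overlapped there, since the transgenic females lay above the wildtype males.

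Col1a2 by 1423110_at read 15.26, 15.18, 15.33 and 15.24 in males 11, 17, 26 and 28 and 14.43, 14.21 and 13.95 in females 7, 84 and 29. Males lay above all females, by 1.08 with a standard error of 0.13 (limma, adjusted p = 0.0217). On the brightest Col1a2 probe set, 1450857_a_at, the difference was 0.56 and was not called (limma, adjusted p = 0.181). On 1446326_at it was 0.69 (limma, adjusted p = 0.414), and the sexes overlapped. Col5a1 by 1434479_at, the last of the 4, was 1.31 higher in males (standard error 0.15, adjusted p = 0.0195).

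The calls rest on few animals of either sex. Over all 53 probe sets, 0 were called without transgenic 17, transgenic 84 or wildtype 29, and 1 without transgenic 11, while 8 were called without wildtype 28. With these animals left out 20 to 26 had an unadjusted p under 0.05 by limma. The share of all probe sets at that level was not counted for these fits. The difference of Col1a1 by 1423669_at stayed between 1.08 and 1.43 over all settings tried, with an adjusted p of up to 0.264. It was 1.08 within transgenic and 1.43 within wildtype animals. Those of Col1a2 by 1423110_at were 0.90 and 1.34, and those of Col5a1 by 1434479_at 1.27 and 1.36.

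The Gapdh ratio moved with sex in the transgenic group, where the females had 13.8 and 17.2 and the males 1.45 and 4.68. In the wildtype group female 29 had 1.41 and 0.927 and the males 1.14 and 1.03, and its Col1a1, Col1a2 and Col5a1 values above were below those of both wildtype males. The part of RNA breakdown or labelling in the male minus female differences was not tested. With the Gapdh ratio in the model 0 of 53 probe sets were called, and 17 had an unadjusted p under 0.05 by limma. The share of all probe sets was not counted for this fit. Without transgenic 7 and 84 female 29 is the only female, so no counts are given for that fit. The median male minus female difference of the fibrillar class was 0.74 there, against 0.56 with all animals.

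**Figure D2:**
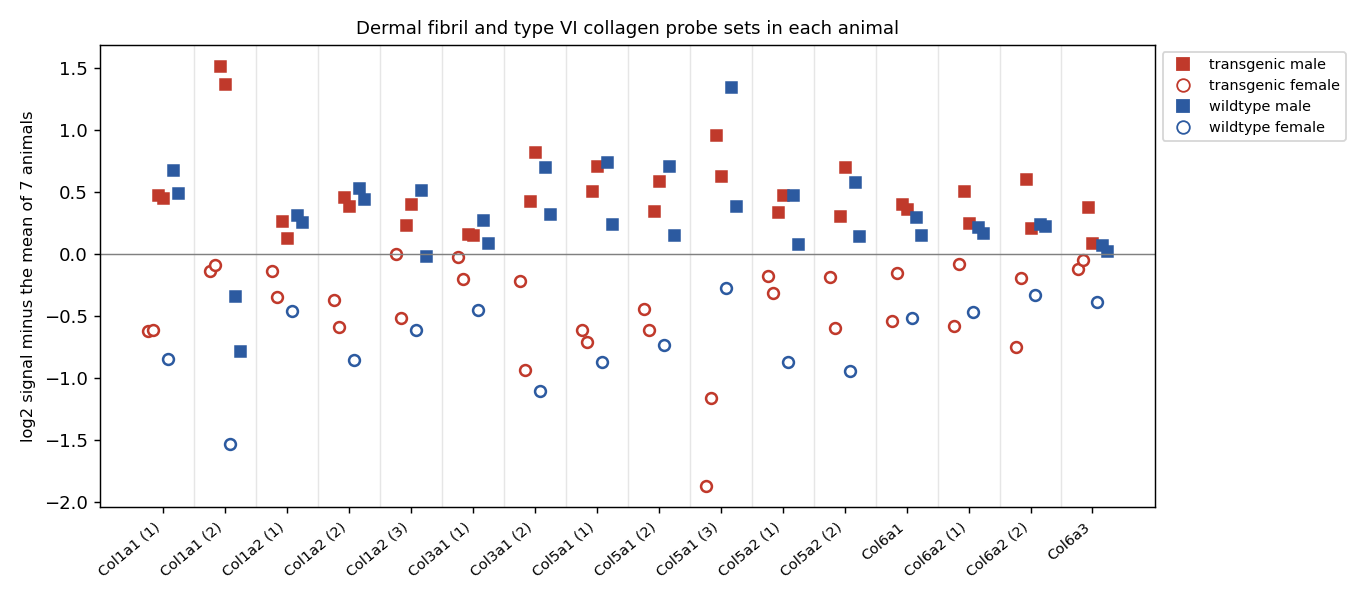
Signal of the tested probe sets of type I, III, V and VI collagen in each animal, as log2 signal minus the mean of the 7 animals, with squares for males, open circles for females, red for transgenic and blue for wildtype; numbers in brackets order the probe sets of a gene from brightest to dimmest. Squares lie above circles on most probe sets, as for Col1a1 (1), where males read 14.92 to 15.15 and females 13.63 to 13.86, while on Col1a1 (2) red lies above blue.

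Other fibril and filament chains had higher values in males without passing the threshold. Col3a1 differed by 1.37 on 1427884_at (limma, adjusted p = 0.0661), where it read 13.76, 14.16, 14.04 and 13.66 in males 11, 17, 26 and 28 and 13.12, 12.40 and 12.23 in females 7, 84 and 29, and by 0.42 on the brighter probe set. Col5a2 differed by 0.85 and 1.06, and the sexes did not overlap on any tested probe set of Col3a1, Col5a1 or Col5a2. The remaining Col5a1 probe sets differed by 1.06 and 1.85.

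Col6a1 was 0.73 higher in males (unadjusted p = 0.000488, adjusted p = 0.11, limma), with males between 12.92 and 13.16 and females between 12.23 and 12.61. Col6a2 differed by 0.69 and 0.75 and Col6a3 by 0.36. Col7a1 read 9.36, 9.18, 8.91 and 8.99 in the males and 8.71, 8.44 and 8.63 in the females, a difference of 0.55. Males lay above females on every tested probe set of these 4 genes.

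A few collagens not known as dermal fibril formers had differences of similar size; they were named after their values were seen. Col2a1, the cartilage fibril chain, differed by 1.53 (adjusted p = 0.15, limma), with males between 7.33 and 8.47 and females between 6.23 and 6.89. The arrays of female 29 read 5.30 and 7.15, so this value was poorly fixed. Col11a1, its partner in cartilage fibrils, read 10.39, 7.26, 6.86 and 9.66 in males 11, 17, 26 and 28 and 8.55, 10.03 and 9.71 in females 7, 84 and 29. It did not follow sex (-0.86, 95% interval -2.88 to 1.16), and its lowest animals, wildtype 26 and transgenic 17, were those with the lowest hair keratin signal. The part of the hair cycle in Col11a1 was not tested.

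Of the type IV chains, Col4a3 and Col4a4, which supply a basement membrane network best known from kidney, had males above females on every tested probe set, without passing the threshold. Col4a4 by 1440250_at read 9.64, 9.37, 9.74 and 8.37 in males 11, 17, 26 and 28 and 8.27, 7.60 and 8.05 in females 7, 84 and 29. Males lay above females, wildtype male 28 by a small margin, and the difference was 1.35 (unadjusted p = 0.00438, adjusted p = 0.28, limma).

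Col4a4 by 1445328_at differed by 1.37, and Col4a3 by 1.80 and 1.57. On the Col4a3 probe sets males averaged 7.96 and 7.74 and females 6.20 and 6.22. The female means lay below the low-signal limit, so these probe sets were tested only because of their male signal. Col4a3 by 1438779_at read 8.18, 8.25, 8.47 and 6.96 in the males and 6.64, 5.59 and 6.36 in the females. Their start regions overlap, as the capitals in the Col4a4 window mark.

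The ubiquitous pair Col4a1 and Col4a2, whose windows share the 78 capital bases above, showed no such separation. Male minus female differences were 0.17 (95% interval -0.16 to 0.50) and 0.11 for Col4a1 and 0.21 (-0.14 to 0.57) for Col4a2, and the sexes overlapped. Col4a5 and Col4a6, the remaining pair, did not move together: Col4a5 differed by -0.13 and -0.22 and Col4a6 by 0.48 and 0.17. That the pairs differ from each other was not tested.

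**Figure D3:**
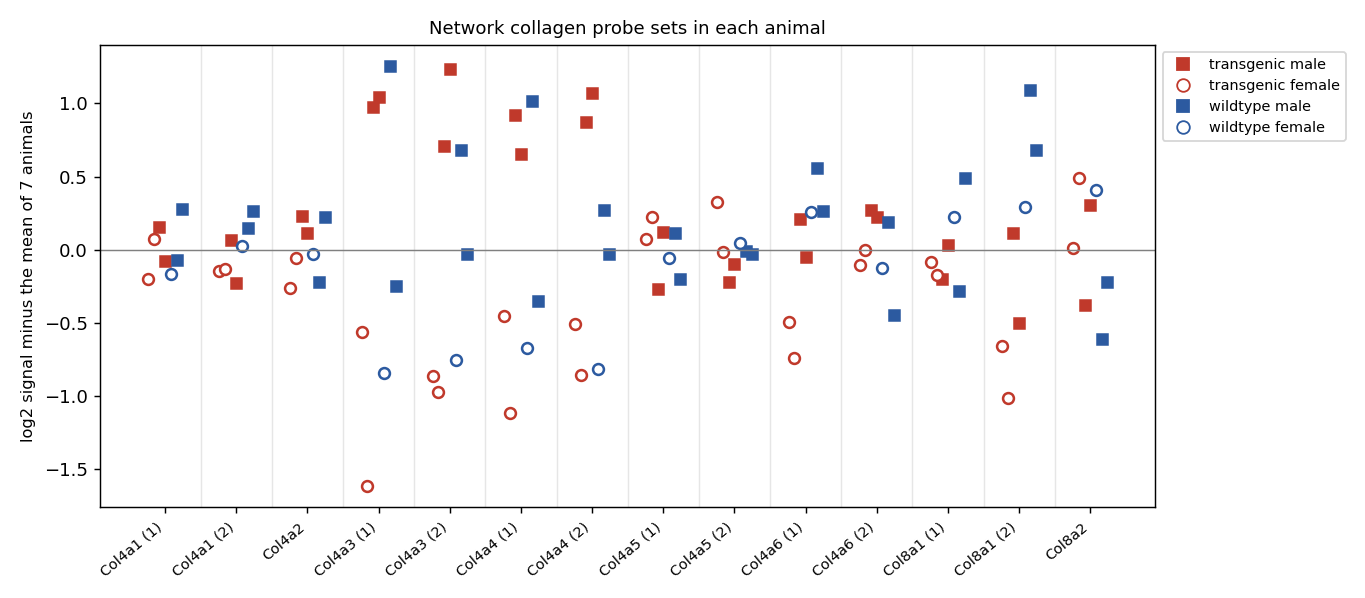
Signal of the tested network collagen probe sets in each animal, as log2 signal minus the mean of the 7 animals, with squares for males, open circles for females, red for transgenic and blue for wildtype. On Col4a3 and Col4a4 males lie above females, by 1.35 to 1.80, while Col4a1 and Col4a2 stay close to 0 in all animals; on Col8a1 (2) the red points lie below the blue ones.

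Of the 6 tested FACIT genes, 0 had an unadjusted p under 0.05 by limma on their brightest probe set. Col14a1, which reads through its brighter probe set at 11.85, 11.50, 11.52 and 11.58 in males and 11.73, 12.01 and 11.56 in females, differed by -0.12 (95% interval -0.46 to 0.21). Col16a1 differed by 0.26 and Col12a1 by -0.35. On the dimmer Col12a1 probe set 1427391_a_at males were 1.09 higher and did not overlap with females (unadjusted p = 0.013, limma). The single probe set with an unadjusted p under 0.05 that was lower in males was Col20a1 by 1425235_s_at, at -0.90. Its male mean, 6.25, lay below the low-signal limit and its female mean, 7.24, above it. Among the others, Col15a1 differed by 0.00, Col18a1 by -0.31 and -0.17, and Col13a1, a transmembrane collagen, by -0.55 with no overlap between the sexes.

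Class medians of the male minus female difference were 0.56 for fibrillar, 0.19 for network, -0.13 for FACIT and 0.36 for other collagens, against 0.01 for all genes. Males were higher for 8 of 9 fibrillar genes, the exception being Col11a1, and for 5 of 8 network, 1 of 6 FACIT and 6 of 9 other genes, against 51.7% of all genes. Averaged over its genes, the fibrillar class deviated from the 7-animal means by -0.39 in female 7, -0.18 in female 84 and -0.42 in female 29. In males 11, 17, 26 and 28 it deviated by 0.54, 0.12, 0.14 and 0.19. The spread within the transgenic group, 0.40 (SD, n = 4), was wider than the difference between its mean of 0.02 and the wildtype mean of -0.03. The FACIT class lay at -0.04 ± 0.14 in males (SD, n = 4) and 0.06 ± 0.23 in females (SD, n = 3).

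**Figure D4:**
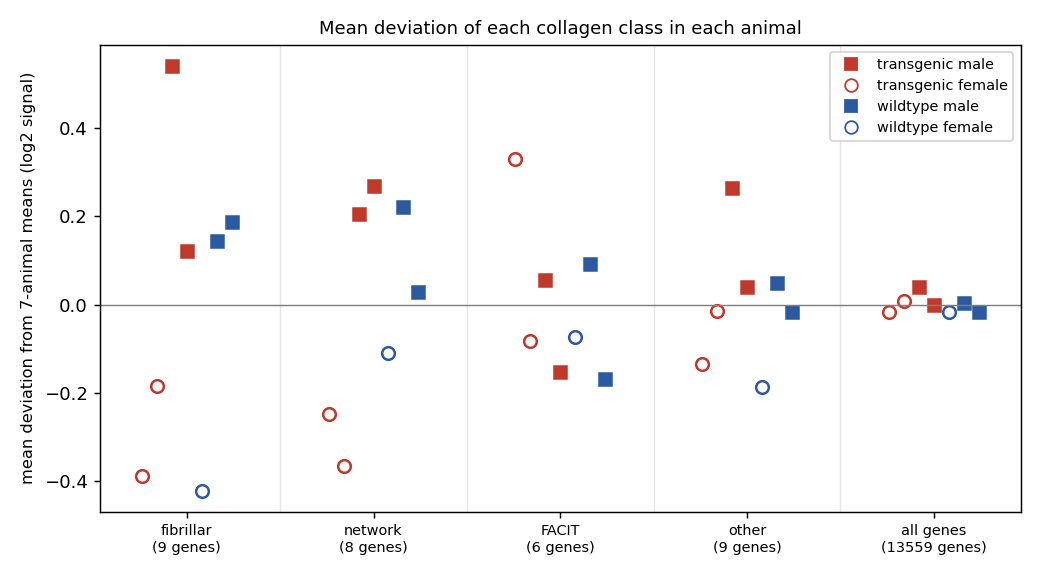
Mean deviation of the tested genes of each class from their 7-animal means (log2 signal) in each animal, beside the same over all 13559 genes; squares are males, open circles females, red transgenic and blue wildtype. For the fibrillar class all males lie above 0 (0.12 to 0.54) and all females below (-0.18 to -0.42), red and blue are mixed, and the FACIT class shows no order by sex.

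Whether the male minus female difference itself depended on the transgene was tested with the product of group and sex. It was called for 0 of the 53 collagen probe sets (limma, smallest adjusted p = 0.9998) and had an unadjusted p under 0.05 for 0, against 0% and 2.86% of all probe sets. With 1 wildtype female the estimates were wide, and they ran from -1.09 to 1.17.

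Genes that build, trim, cross-link or bind collagen were taken from a list of 58, of which 53 were on the array and 49 were tested. Between transgenic and wildtype animals 0 of 49 passed the threshold (limma, adjusted p under 0.05), limma gave an unadjusted p under 0.05 to 1 with a positive and 1 with a negative difference, and the median difference was 0.04. Over all 13559 genes 0 passed it, and the counts at an unadjusted p under 0.05 were 596 and 624. Dpt, dermatopontin of the fibril surface and also a fibroblast marker, read 14.44, 13.99, 14.43 and 14.36 in transgenic 7, 11, 17 and 84 and 14.01, 13.63 and 13.51 in wildtype 26, 28 and 29. Transgenic 11 lay below wildtype 26, and the difference was 0.59 (adjusted p = 0.305, limma). Itgb1, the beta chain of collagen-binding integrins, differed by -0.66 (adjusted p = 0.405). The next smallest p-values belonged to P4hb (-0.52), Ppib (0.23), Loxl3 (0.45), Kera (0.48), Adamts3 (0.50) and Ogn (0.31).

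Between males and females 3 of the 49 passed the threshold, all higher in males, and limma gave an unadjusted p under 0.05 to 26 with the higher level in males and 1 with the lower. Over all 13559 genes 40 passed it, and the counts at an unadjusted p under 0.05 were 954 and 650. The median of the list was 0.50, with 42 of 49 above 0.

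Sparc encodes a collagen-binding glycoprotein of the matrix. It read 15.39, 15.09, 15.57 and 15.41 in males 11, 17, 26 and 28 and 13.79, 13.95 and 14.41 in females 7, 84 and 29, so that males lay above females. The difference was 1.26 with a standard error of 0.13 (limma, adjusted p = 0.0099), and its other probe sets differed by -0.38 and 0.96.

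Lox, the lysyl oxidase that starts cross-linking, read 12.16, 12.73, 12.82 and 12.02 in the males and 11.01, 10.67 and 9.98 in the females. Males were 1.94 higher (standard error 0.27, limma, adjusted p = 0.041) and 2.49 higher on the other Lox probe set. Plod1, a lysyl hydroxylase, was 1.61 higher (standard error 0.22, adjusted p = 0.0367) and 0.56 higher on its other probe set. None of the list was called without transgenic 17 or transgenic 84, 1 without transgenic 7 or wildtype 29, and 6 without wildtype 28. With these animals left out 17 to 29 had an unadjusted p under 0.05 by limma. The share of all genes was not counted for these fits, nor for the one that follows. With the Gapdh ratio in the model 0 were called and 25 had an unadjusted p under 0.05 by limma.

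By role, 14 of 19 secretion and modification genes were higher and 1, Plod2, lower in males at an unadjusted p under 0.05 by limma. They included Creb3l1, a transcription factor of the secretory pathway (1.49), P4ha2, a prolyl hydroxylase subunit (1.32), and Serpinh1, the collagen chaperone HSP47 (0.74). The same held for 3 of 5 propeptide cleavage genes, among them Bmp1 (0.54) and its enhancer Pcolce (1.04), for 1 of 4 cross-linking genes, for 6 of 13 fibril-associated genes and for 2 of 8 receptors. Aspn, asporin, was 1.86 higher (adjusted p = 0.0588, limma). Lum, lumican, was 0.50 higher, whereas Dcn, decorin, differed by 0.30 (95% interval -0.05 to 0.64) and Dpt by 0.01.

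Fibroblast markers overlapped between the sexes in summed signal, a sum that weighs the brightest markers most (mean log2 signal 9.11 to 14.05 over the list). Their summed signal was 41815, 51807, 45783 and 31063 in males 11, 17, 26 and 28 and 48954, 47257 and 28960 in females 7, 84 and 29. At an unadjusted p under 0.05 by limma 3 of 8 differed between males and females, against 954 higher and 650 lower in males among all 13559 genes. The median male minus female difference was 0.18, with 5 of the 8 above 0. The sums of keratinocyte and muscle markers overlapped between the sexes as well. Hair shaft markers had a median male minus female difference of -3.14, with 0 of 6 above 0, and 0 of 6 had an unadjusted p under 0.05 by limma. Their summed signal was 45633, 7717, 654 and 132304 in males 11, 17, 26 and 28 and 113135, 102480 and 138377 in females 7, 84 and 29. With the hair keratin mean in the model 2 of the 53 collagen probe sets were called between the sexes and 24 had an unadjusted p under 0.05 by limma. The share of all probe sets was not counted for that fit. The part of these cell types in the male minus female differences of the collagen genes was not tested.

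Marker levels also differed between the groups. At an unadjusted p under 0.05 by limma 4 of 8 fibroblast markers differed between transgenic and wildtype animals, with sums of 41815 to 51807 and 28960 to 45783. Over all 13559 genes 596 were higher and 624 lower in transgenic animals at that level. The difference was above 0 for 6 of the 8 fibroblast markers and for all 4 adipocyte markers tested. Of the adipocyte markers, 3 had an unadjusted p under 0.05 by limma. Adipocyte sums were 44250 to 58961 in transgenic and 37051 to 40651 in wildtype animals and did not overlap. Their part in the group values of the collagen genes was not tested.

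**Figure D5:**
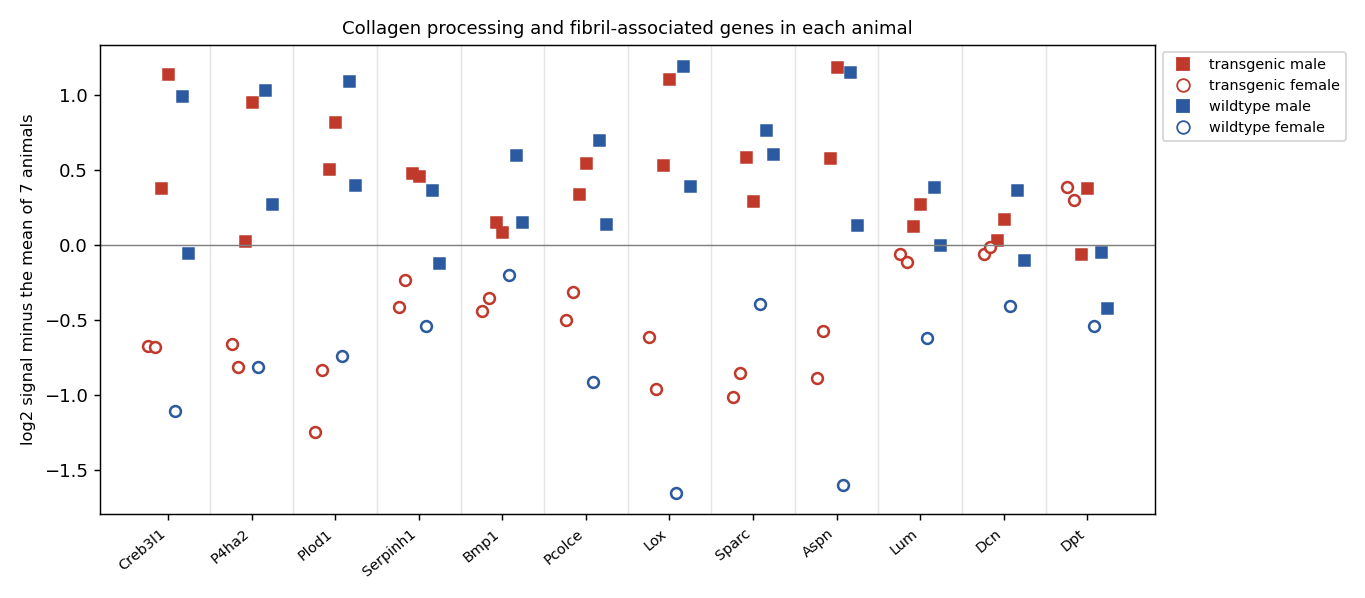
Signal of 12 genes of collagen processing, cross-linking and the fibril surface in each animal, as log2 signal minus the mean of the 7 animals, with squares for males, open circles for females, red for transgenic and blue for wildtype. Males lie above females for Plod1, Lox, Sparc and Aspn (by 1.26 to 1.94), while for Dpt the red points lie mostly above the blue ones and the sexes mix.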

How the data were processed

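Belly skin RNA of 7 mice was measured on 8 Affymetrix arrays with one-cycle labelling, per the labels. The authors deposited an intensity per probe set, not log-transformed and computed with MAS5 per the submitters' processing notes (version and genome build not given in the sources used here), and each array has the same mean after trimming 2% at each end. Probe sets were named from GEO's platform annotation: 34945 had 1 symbol, 932 several and 9160 none, and only the first were named. RefSeq tables (GRCm38.p6) served for current names, promoter windows and gene neighbours.

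To each deposited intensity 21.8 was added, the 20th percentile over the table, before taking log2. The 64 control probe sets were left out, the arrays of wildtype 29 were averaged, and 27022 probe sets with a mean at or above the 40th percentile were tested with limma 3.58.1 in R 4.3.3 (group model, empirical Bayes with trend, 2-sided, Benjamini-Hochberg over all of them, threshold 0.05). Intervals are 95% and moderated. Where nothing else is stated, a gene is given by its brightest probe set. Named genes are a set of dermal, basement membrane and surface collagens, collagen genes with an unadjusted p under 0.05, no overlap between groups or probe sets of opposite direction at least 1 apart, and the 8 list genes of smallest p. The members and lists were chosen with earlier results of these data known. The male against female comparison and the genes named in it beyond this rule, the comparison of the Col1a1 probe sets, and the fits without transgenic 7 and 84 or with hair keratins were added after seeing the data. Each animal is 1 replicate, and p-values measure the spread between these animals. The pipeline was tested on simulated data. Python 3.11.15, pandas 2.3.3 and matplotlib 3.10.9 were used for summaries and plots.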

Additional observations from a re-analysis of the deposited data

Results flagged for a closer look

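Among 65 collagen and collagen pathway probe sets examined, a single animal stood far from the other transgenic animals on 2. By chance alone about 1 in 20 probe sets would be flagged, and 2 of 65 is not above that share. Col18a1 by 1426955_at read 10.45 in transgenic 17 and 10.84 to 10.87 in the other 3, a gap of 0.935 of the whole range. Ppib by 1437649_x_at, the cyclophilin of collagen folding, read 13.69 in transgenic 7 and 13.40 to 13.43 in the others, a gap of 0.892 of the range.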

How the results depend on the processing

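Of 1728 values recomputed for 90 results, 1579 kept their direction and their side of the threshold or their size. None of the 962 male against female values of single genes reversed. These genes were picked for an unadjusted p under 0.05 by limma in that comparison, which favours keeping the direction. The group values include genes named whatever their values, so the reversals of the comparisons cannot be set against each other. The group values that reversed were uncalled before and after. With the Gapdh ratio in the model they were -0.077 for Loxl3, 0.0026 for Col4a6, 0.70 for Col1a1 by 1423669_at, -0.064 for Col12a1, 0.91 for Col5a1, 0.21 for P4hb, 0.35 for Col1a2 and 0.12 for Col4a1. With sex in the model they were 0.018, 0.15, 0.033 and 0.0026 for Col1a1, Col5a1, Col1a2 and Col4a1, and without transgenic 7 and 84 they were 0.36, 0.57, 0.16 and 0.025. Without those animals the transgenic group held males only, so group and sex are mixed in these values. Cyclic loess gave -0.047, -0.12, -0.051 and -0.054 for Col4a2, Col3a1, Col6a1 and Col6a2, quantile normalization -0.034 for Col4a2 and -0.0084 for Col6a2, and hair keratins in the model -0.0022 for Col4a2 and 0.11 for Col5a1. Leaving out each animal gave -0.063 to 0.24 for Col7a1, -0.089 to 0.13 for Col4a2, -0.21 to 0.23 for Col6a1, -0.17 to 0.25 for Col6a2, -0.52 to 0.29 for Col5a1, -0.11 to 0.11 for Col4a1, -0.17 to 0.30 for Col12a1, -0.31 to 0.078 for Col1a2, -0.66 to 0.10 for Col1a1, -0.20 to 0.47 for Col5a2 and -0.16 to 0.20 for Col3a1. The cause of these reversals was not tested.

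The group count of called collagen probe sets went from 0 to 1 with sex in the model, and that call was lost without a variance trend (adjusted p = 0.09, limma). The Gapdh ratio moved the median group difference of the fibrillar class to 0.68 and of the other class to 0.48, and leaving out transgenic 7 and 84 moved that of the other class to 0.33. The transgenic group then held no female. The male against female count of 4 became 0 with the Gapdh ratio or without a trend (27 at an unadjusted p under 0.05 by limma). It was 2 with hair keratins, 7 with quantile normalization, 7 at an adjusted p under 0.1, and 0 to 8 when each animal was left out. The pathway count of 3 became 0 with the Gapdh ratio or without a trend (26 at an unadjusted p under 0.05 by limma), and 0 to 6 when each animal was left out. The male against female median of the network class was 0.35 with hair keratins, and that of the fibrillar class 0.89 with probe sets averaged and 0.74 without transgenic 7 and 84. Shares of all probe sets at an unadjusted p under 0.05 were not counted for these settings. No paired analysis was possible because the groups share no animal numbers. The number of animals, with 1 wildtype female, limits all of these values.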
